A study of Mus musculus with 11 samples.

Results

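The nuclear genes for the subunits of oxidative phosphorylation complexes I to V were followed across 11 RNA sequencing libraries from mouse ventral striatum. They were picked by symbol in the GENCODE M21 annotation: protein-coding genes whose symbols begin with Ndufa, Ndufb, Ndufc, Ndufs, Ndufv, Uqcr, Cox4 to Cox8 or Atp5, together with Cyc1, Sdha, Sdhb, Sdhc and Sdhd, and without the Ndufaf assembly factors. The rule found 87 genes, against 52550 gene identifiers in the count table. It used no measured value. By complex these were 38 genes of complex I, 4 of complex II, 9 of complex III, 18 of complex IV and 18 of complex V. The rule works on symbols alone, so it also takes in relatives that are not fixed subunits, such as Atp5s, a protein related to coupling factor B.

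Oxidative phosphorylation takes place in the inner mitochondrial membrane. Complexes I and II pass electrons to ubiquinone, complex III hands them on to cytochrome c, and complex IV delivers them to oxygen. Complexes I, III and IV pump protons as they do so, and complex V, the ATP synthase, uses the resulting gradient to make ATP. Complexes I, III, IV and V combine subunits from the mitochondrial genome with subunits from the nucleus, whereas complex II is wholly nuclear. Neurons depend on this pathway for the ATP that drives ion pumping and synaptic transmission.

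Poly(A) RNA came from the shell of the nucleus accumbens. The mice were 8 weeks old and had a mixed background (CBA/C57BL6J/129svEmx). The series addresses weaker signalling by the retinoic acid receptor Rarb in mice that model Huntington disease, and its design text names the R6/1 transgene and Rarb. The design names 12 samples, of which 1 was excluded. The labels used here name the animal of every library without its genotype, so no genotype groups were formed and values are given by library, under codes such as m61. Differences of genotype, animal, dissection and library preparation therefore lie together in every spread given here, and they cannot be told apart.

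Library totals ran from 24840981 counts (m61) to 48825783 counts (m49). Striatal projection neuron markers were present in every library, with Ppp1r1b, which encodes DARPP-32, at 438 to 1352 CPM, which are counts scaled to library size. Slc17a7, the vesicular glutamate transporter of cortical neurons, was also present in every library, at 636 to 2118 CPM. The summed CPM of the 5 cortical glutamatergic markers ran from 780 to 2356, and that of the 8 striatal projection neuron markers from 1514 to 3848. In tissue RNA of this kind, fewer cells of a type and less RNA per cell cannot be told apart.

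Of the 87 genes, 86 were in the table, and 83 passed the filter for genes with enough counts, set at 1 CPM or more in 3 libraries with a median count of 10 or more. Cox8c had no count in any library. Cox8b, the heart and muscle form of subunit 8, ranged from 0 (m47, m101 and m44) through a median of 0.083 to 0.441 CPM (m74). Cox7b2, a form of subunit 7b known from testis, ranged from 0.198 (m83) through 0.392 to 1.07 CPM (m57). A second Atp5o identifier in the annotation, ENSMUSG00000116933, was not analysed here. The numbers below cover the 83 genes that passed.

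Promoter windows from RefSeq (GRCm38.p6, 250 bases before to 50 after a transcription start) were matched by symbol for 67 of the genes, with 72 windows. Genes with no window of that symbol include Ndufa2, Ndufa4l2, Ndufb9, Ndufs1, Sdhc, Cyc1, Uqcrb, Uqcrc2, Uqcrq, Cox4i1, Cox4i2, Cox6a2, Cox6c, Cox8c, Atp5a1, Atp5f1, Atp5mpl and Atp5s. The windows were searched on both strands for 3 exact words, chosen because the factors that bind them are known regulators of respiratory chain genes. The NRF1 word GCATGCGC was in 10 subunit windows (13.9%), against 2.71% of all 32851 windows. These belong to Ndufa6, Ndufa8, Ndufa11, Sdhb, Uqcr11, Uqcrc1, Cox6a1, Atp5g2, Atp5k and Atp5l, 1 or more genes of each complex. The YY1 word AAGATGGC was in 9 (12.5%), against 2.75% of all windows. The GABPA word CCGGAAGT was in 5 (6.94%), against 3.89% of all windows. None of the words contains another, and 1 window, that of Uqcr11, held both the NRF1 and the GABPA word. A match is a description of the letters in the window and shows no binding.

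In 5 of the 10 the word was on both strands and its copies overlapped, which makes a run of 10 letters. These are shown because they hold the longest match and span complexes I, III, IV and V, with the overlapping copies in capitals and each sequence read 5′ to 3′ on the strand of its gene. Those of Ndufa11, Atp5k, Atp5g2 and Cox6a1 lie before the start, and that of Uqcrc1 lies past it.
Ndufa11, chr17:56717662-56717761, plus strand: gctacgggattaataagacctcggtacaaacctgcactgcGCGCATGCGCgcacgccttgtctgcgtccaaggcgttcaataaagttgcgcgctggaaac
Atp5k, chr5:108434400-108434499, minus strand: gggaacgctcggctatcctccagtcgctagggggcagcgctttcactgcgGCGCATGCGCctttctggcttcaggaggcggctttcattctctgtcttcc
Atp5g2, chr15:102671048-102671147, minus strand: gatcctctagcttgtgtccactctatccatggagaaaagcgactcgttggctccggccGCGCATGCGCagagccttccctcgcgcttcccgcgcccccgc
Cox6a1, chr5:115349049-115349148, minus strand: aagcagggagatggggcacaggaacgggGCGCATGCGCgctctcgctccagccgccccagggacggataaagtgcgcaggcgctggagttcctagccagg
Uqcrc1, chr9:108936668-108936697, plus strand: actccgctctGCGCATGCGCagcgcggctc

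Of the 9 windows with the YY1 word, 8 had it on the sense strand within the 50 bases past the start, which is 11.1% of subunit windows, against 0.865% of all windows. In those 8 windows (Ndufa3, Ndufa9, Ndufb8, Ndufc1, Ndufs4, Ndufs6, Ndufs7 and Atp5j2) the first base of the word lay 23 to 39 bases from the start. The ninth, Atp5j, had it 88 bases before the start. The word holds ATG, the letters of a start codon, and whether it spans the start codon of these genes was not tested. In the 4 sequences below, chosen to show that shared place in small and core subunits of complex I, the word is in capitals.
Ndufa3, chr7:3617384-3617413, plus strand: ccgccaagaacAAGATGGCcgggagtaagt
Ndufa9, chr6:126849097-126849126, minus strand: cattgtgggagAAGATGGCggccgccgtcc
Ndufs7, chr10:80249462-80249491, plus strand: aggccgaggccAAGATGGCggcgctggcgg
Ndufc1, chr3:51408915-51408944, minus strand: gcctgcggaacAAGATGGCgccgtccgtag

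Levels were set per kilobase of the principal transcript, the isoform that the annotation ranks first, since the complexes differ in transcript length. The median length was 872.75 bases in complex I, 2065.5 in complex II, 963 in complex III, 645 in complex IV and 838 in complex V. On that scale the median gene of complex IV stood at 226 CPM per kilobase and that of complex V at 216, against 131 in complex III, 104 in complex II and 100.9 in complex I. The median over all 15353 genes that passed the filter was 8.87.

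In complex V the most abundant gene was Atp5b, the catalytic beta subunit of the ATP synthase, at 653 (m89) through a median of 776 to 987 CPM per kilobase (m61). Its alpha partner Atp5a1 followed at 375 (m89) through 429 to 573 (m61). The least abundant was Atp5s, at 7.24 (m74) through 10.3 to 12.9 (m61). The c subunit, the rotor ring that protons turn, has 3 genes for 1 protein. Atp5g3 made up 83.3% of their summed level per kilobase in the median library (range 80.8 to 85.2%), Atp5g2 8.51% (7.06 to 10.2%) and Atp5g1 8.14% (7.20 to 8.997%).

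In complex IV, the cytochrome c oxidase, the most abundant gene was Cox4i1, at 483 (m115) through 665 to 1195 CPM per kilobase (m61). Cox8a stood at 332 (m115) through 528 to 961 (m74). The small subunit Cox6a1 stood at 289 (m115) through 416 to 761 (m74), and Cox5a, another nuclear subunit, at 186 (m115) through 255 to 449 (m61). Each had its lowest value in the same library, and its highest in m61 or m74. The alternative forms were at the other end of the scale. Cox4i2, the form associated with lung and low oxygen, made up 0.270% of the Cox4i pair in the median library. Cox7a1 and Cox6a2, the heart and muscle forms, made up 0.866% and 1.31% of their pairs. Cox6b2, known from testis, made up 0.560%, Cox7b2 0.564% and Cox8b 0.0551%.

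Complex I oxidises NADH. Its most abundant gene was Ndufa4, at 360 (m115) through 497 to 839 CPM per kilobase (m61). Its protein has since been assigned to complex IV, although the symbol places it here. Its relative Ndufa4l2, known as induced by low oxygen, was the least abundant complex I gene, at 1.73 (m115) through 2.94 to 6.17 (m61), and made up 0.576% of that pair. The core subunit Ndufs1, which carries iron-sulfur clusters, stood at 52.4 (m83) through 61.2 to 69.7 (m49).

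In complex II, succinate dehydrogenase, the flavoprotein Sdha was the most abundant, at 137 (m89) through 154 to 182 CPM per kilobase (m49). The iron-sulfur subunit Sdhb stood at 98.8 (m115) through 132 to 171 (m74). The membrane anchor Sdhc was the least abundant, at 27.4 (m57) through 33.7 to 51.0 (m61). In complex III, the hinge protein Uqcrh led at 258 (m115) through 344 to 663 (m61), and Uqcrb, a ubiquinone-binding subunit, was lowest at 69.4 (m57) through 90.9 to 152 (m101). The ranges of most neighbours in these orders overlapped, and no order between them was tested.

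**Figure D1:**
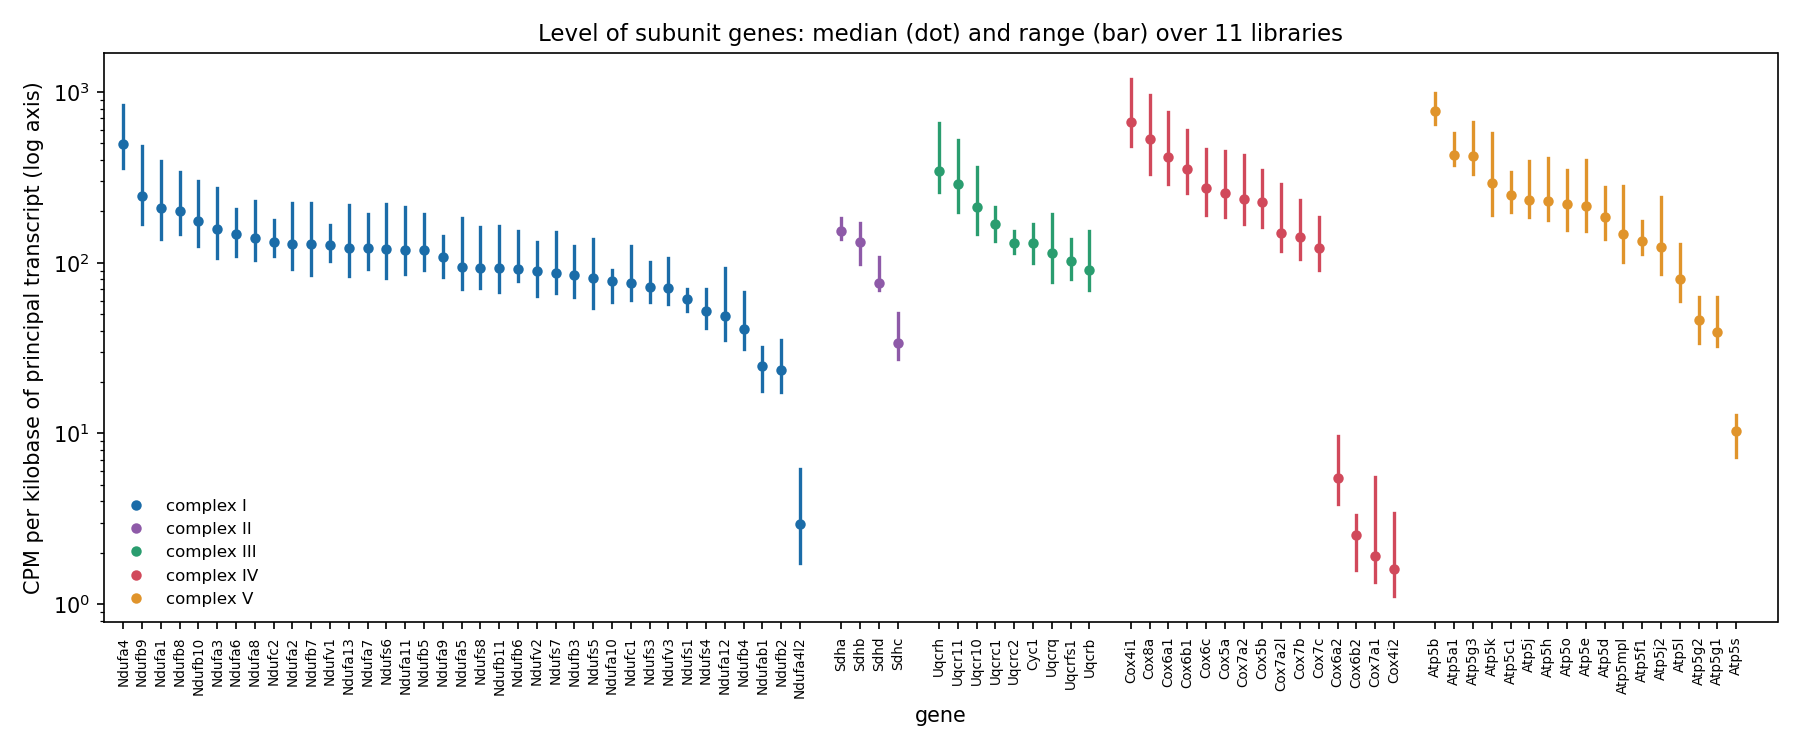
Level of the subunit genes in CPM per kilobase of principal transcript, on a log axis, by complex. Dots are medians and bars the range over the 11 libraries, and 1 complex I gene is not drawn. Most medians lie between 23.5 (Ndufb2) and 776 (Atp5b), with Atp5s at 10.3, while Ndufa4l2, Cox6a2, Cox6b2, Cox7a1 and Cox4i2 lie below 10.

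The subunit genes moved together between libraries. Their highest library was m61 for 55 of the 83 genes and m74 for 23, and their lowest was m115 for 66. Over all 15353 genes tested, m61 was the highest for 2748 and m74 for 1857, and m115 the lowest for 1701. Over the whole family, the mean log2 deviation of the genes from their own medians was 0.61 in m61, 0.51 in m74, 0.26 in m83 and 0.24 in m101. It was lowest in m115, at -0.39, and in m47, at -0.24. Together the genes took 1.08% of all counts in m115 and 1.85% in m74.

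Complexes I, III, IV and V shared this pattern closely, with means in m61 of 0.63, 0.57, 0.66 and 0.62. Before any allowance for transcript length, complex II had a flatter profile, at 0.37 in m61. In m115 the means were -0.42, -0.39, -0.38 and -0.37, against -0.20 in complex II. In m74, complex IV stood highest, at 0.65, with 0.49 in complex I, 0.25 in complex II, 0.50 in complex III and 0.47 in complex V.

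The spread of a gene is given as its coefficient of variation between libraries beyond counting error. Its median was 0.252 over the subunit genes and 0.201 over all genes tested, and 59 of the 83 genes lay above the latter value. By complex the median spread was 0.249, 0.164, 0.259, 0.276 and 0.234 for complexes I to V. The smallest in each complex were those of Ndufs1 (0.0758), Sdha (0.0786), Uqcrc2 (0.104), Cox7c (0.218) and Atp5a1 (0.121). The largest were those of Ndufa4l2 (0.394), Sdhb (0.189), Uqcr11 (0.29996), Cox4i2 (0.378) and Atp5k (0.341). The 15 core catalytic subunits had a median of 0.165, against 0.263 for the 68 other subunits. These core genes also have longer transcripts, with a median principal length of 1623 bases against 711.25.

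Transcript length separated these libraries across the whole transcriptome. The length contrast of a library is a difference of medians in log2 deviation, the longest 10% of genes against the shortest 10%. It was computed on the summed length of all exons, not on principal length, and without the subunit genes and the mitochondrially encoded genes. It ran from -0.61 in m61, -0.45 in m83 and -0.40 in m74 to 0.42 in m115 and 0.43 in m57. A low value means that short transcripts were relatively high. The libraries with the highest subunit levels were among those with the lowest contrast, and the reverse held for m115, but m57 had the highest contrast with a subunit mean of only -0.14.

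Each gene's log2 slope on this contrast was tested across all 15353 genes with edgeR's quasi-likelihood test and Benjamini-Hochberg adjustment. Of the 83 subunit genes, 77 fell as the contrast rose and none rose. Over all genes tested, 14.9% fell and 18.1% rose. The median slope was -0.86 for the subunit genes and 0.02 for all genes. The contrast is made from the same libraries, so these calls describe how the genes go with it in these 11 libraries.

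By complex, 37 of 38 genes fell in complex I, 3 of 4 in complex II, 9 of 9 in complex III, 12 of 15 in complex IV and 16 of 17 in complex V. The median slopes were -0.86, -0.58, -0.86, -0.96 and -0.82. The steepest was that of Ndufa4l2 (-1.47, SE 0.26, edgeR adjusted p = 0.000839). It was followed by Atp5k, the e subunit of the ATP synthase (-1.12, SE 0.19, adjusted p = 0.000608), and Ndufb9, an accessory subunit of complex I (-1.07, SE 0.16, adjusted p = 0.000284).

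Ndufs1 and Sdha, among the longest transcripts of the family at 2625.5 and 2900 bases, did not go with the contrast. Ndufs1 had 151 CPM in m61 and 164 in m74, the libraries of high subunit levels, and 165 in m115, where most subunits were lowest. Its slope was 0.10 (SE 0.11, edgeR adjusted p = 0.524). Sdha had 455 CPM in m61, 465 in m74 and 433 in m115, with a slope of -0.02 (SE 0.12, adjusted p = 0.939). The values of both genes in m61, m74 and m115 thus lay inside the range of the other libraries. The remaining genes that did not pass were Atp5s (-0.15, adjusted p = 0.594) and 3 tissue forms of complex IV with few counts, Cox4i2 (-1.03, adjusted p = 0.0647), Cox6b2 (-0.62, adjusted p = 0.215) and Cox7a1 (-1.04, adjusted p = 0.0816).

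The 3 genes that mark the family differed in slope, and the longest transcript had the shallowest. Atp5b, at 1916 bases, ranged from 1251 CPM (m89) through a median of 1486 to 1892 (m61), and its slope was -0.48 (SE 0.12, edgeR adjusted p = 0.00667). Cox5a, at 645 bases, ranged from 120 CPM (m115) through 165 to 289 (m61), with a slope of -0.96 (SE 0.12, adjusted p = 0.000164). Cox6a1, at 571 bases, ranged from 165 CPM (m115) through 237 to 434 (m74), with a slope of -0.98 (SE 0.17, adjusted p = 0.00066). The highest library exceeded the lowest 1.51-fold for Atp5b, 2.41-fold for Cox5a and 2.63-fold for Cox6a1.

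The median slope was -0.56 over the core catalytic subunits and -0.91 over the other subunits, with 13 of 15 and 64 of 68 genes falling. That difference was not tested. Among the core genes that fell were Ndufs7 (-0.87), which lies next to the ubiquinone site of complex I, and the NADH-binding Ndufv1 (-0.56). Sdhb fell by 0.71, Sdhc by 0.66 and Sdhd by 0.49 on the log2 scale per unit of contrast. Cyc1, cytochrome c1 of complex III, fell by 0.67, and the Rieske protein Uqcrfs1 by 0.52. Atp5a1 fell by 0.36. After a smooth curve on principal transcript length was taken off in each library, the median slopes were -0.39 for the core and -0.40 for the other subunits, with 10 of 15 and 39 of 68 falling.

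Within bins of principal length, the subunit genes had lower slopes than other genes in every bin. Below 600 bases the median was -0.97 over 23 subunit genes and -0.68 over the 268 other genes. Between 1000 and 1500 bases it was -0.72 over 13 subunit genes and -0.37 over 1932 others. Between 2000 and 3000 bases it was -0.51 over 7 subunit genes and 0.02 over 3931 others. Sdhc alone was longer, and its slope was -0.66, against a median of 0.32 for the others.

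The gap was smaller in the short bins against other genes of similar level. Subunit genes are abundant, so the other genes were also taken at 40 to 500 CPM, a range chosen after the values were seen. The subunit genes themselves were kept at every level. The median of the other genes was then -0.99 over 42 genes below 600 bases, which is no higher than the -0.97 of the subunit genes. From 600 to 800 bases it was -0.83 over 84 genes, against -0.92. In the bins from 800 bases upward a gap was left. From 800 to 1000 bases the medians were -0.94 for 11 subunit genes and -0.65 for 130 others. From 1000 to 1500 bases they were -0.72 for 13 subunit genes and -0.455 for 541 others. From 1500 to 2000 bases they were -0.53 for 10 subunit genes and -0.26 for 749 others, and from 2000 to 3000 bases -0.51 and -0.02. Of the 42 other genes at 40 to 500 CPM below 600 bases, 88.1% fell as the contrast rose, as 21 of the 23 subunit genes did. No test was run on these bins.

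**Figure D2:**
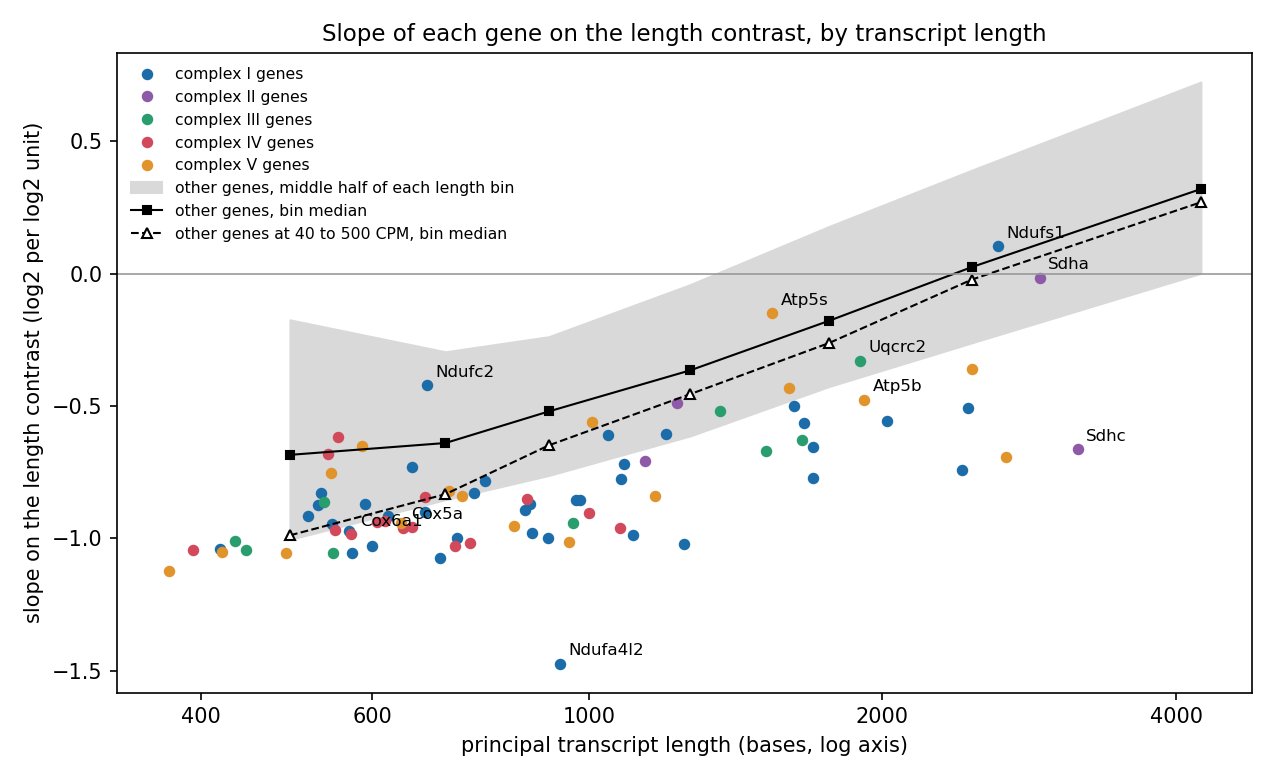
Slope of each gene's log2 level on the length contrast (y) against principal transcript length on a log axis (x). Coloured dots are the 83 subunit genes by complex, squares the medians of other genes per length bin with their middle 50% shaded, and triangles the medians of other genes at 40 to 500 CPM. Most subunit genes below 800 bases lie near the triangles, and those above 800 bases lie mostly below them, with Ndufs1, Sdha and Atp5s near or above 0.

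To allow for length more closely, a smooth curve of log2 deviation on principal length was fitted in each library over the genes outside the family and taken off. In m61 this curve stood at 0.38 for transcripts of 600 bases and at -0.25 for those of 6000 bases, and in m115 at -0.24 and 0.17. The mean deviation of the subunit genes after it was 0.36 in m61, 0.26 in m74, 0.10 in m101 and 0.07 in m83. It was -0.11 in m47 and -0.20 in m115. The same libraries, m61, m74 and m115, thus stood at the extremes, with smaller deviations. For complexes I to V the means after the curve were 0.39, 0.35, 0.33, 0.31 and 0.38 in m61. In m115 they were -0.23, -0.14, -0.21, -0.14 and -0.19. Complex II then lay among the others in m61, while in m74 it was still the lowest, at 0.19.

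Median spread after the curve was 0.141 for the subunit genes and 0.181 for all genes, with 15 of 83 above the latter. By complex it was 0.146, 0.0889, 0.132, 0.155 and 0.135 for complexes I to V. Cox4i1 had the highest level of complex IV and a spread of 0.155 after the curve, and Atp5c1, the central stalk of the ATP synthase, had 0.0724. The largest in complexes I to V were those of Ndufa4l2 (0.290), Sdhc (0.223), Uqcrq (0.181), Cox4i2 (0.298) and Atp5g1 (0.227). Ndufa4l2 and Cox4i2 had few counts, and Atp5g1 has a pseudogene copy that makes its counts uncertain. With a curve on the summed exon length, the lowest spreads by complex were those of Ndufc2, Sdhd, Uqcrc2, Cox7c and Atp5c1 (0.0498 to 0.114) and the highest those of Ndufb7, Sdhc, Uqcrq, Cox4i2 and Atp5j2 (0.160 to 0.298). That planned curve gave a median of 0.165 for the subunit genes and 0.180 for all genes, with 25 of 83 above the latter. A curve on exon length and GC content gave 0.159 and 0.167, with 36 of 83 above. A curve on mean transcript length gave 0.135 and 0.183, with 16 of 83 above. The size of the gap thus changed with the curve.

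With the curve as an offset, 49 of the 83 genes still fell as the contrast rose (edgeR's quasi-likelihood test, Benjamini-Hochberg adjustment), against 9.61% of all genes. None rose, against 10.5% of all genes. The median slope was -0.40 for the subunit genes and -0.02 for all genes. The curve makes no allowance for level, and the median level was 110 CPM over the subunit genes and 23.6 CPM over all genes. These counts therefore do not compare genes of similar level, and other genes at 40 to 500 CPM were not counted after the curve. By complex the genes that fell were 24 in complex I, 2 in complex II, 5 in complex III, 7 in complex IV and 11 in complex V. Cox5a kept a slope of -0.42 (SE 0.11, adjusted p = 0.0163) and Atp5b one of -0.39 (SE 0.12, adjusted p = 0.0324). Cox6a1 did not pass, at -0.40 (SE 0.14, adjusted p = 0.0585).

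The steepest slopes after the curve were those of Ndufa4l2 (-1.05), Sdhc (-0.80) and Ndufb2 (-0.78). Ndufc2, an accessory subunit of the membrane arm of complex I, turned from -0.42 (adjusted p = 0.0165) before the curve to 0.11 after it (adjusted p = 0.539), and so was no longer called. A curve on the summed length of all exons, which counts rare isoforms, left 57 genes falling against 9.39% of all genes, and 0 rising against 8.6%. The curves based on the 2 kinds of length differ for genes with a long rare isoform, such as Atp5l, a membrane subunit of the ATP synthase, with 544 bases of principal transcript and 6443 of exons. Its slope was -0.98 (adjusted p = 0.000726) after the exon curve and -0.17 (adjusted p = 0.322) after the principal curve.

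**Figure D3:**
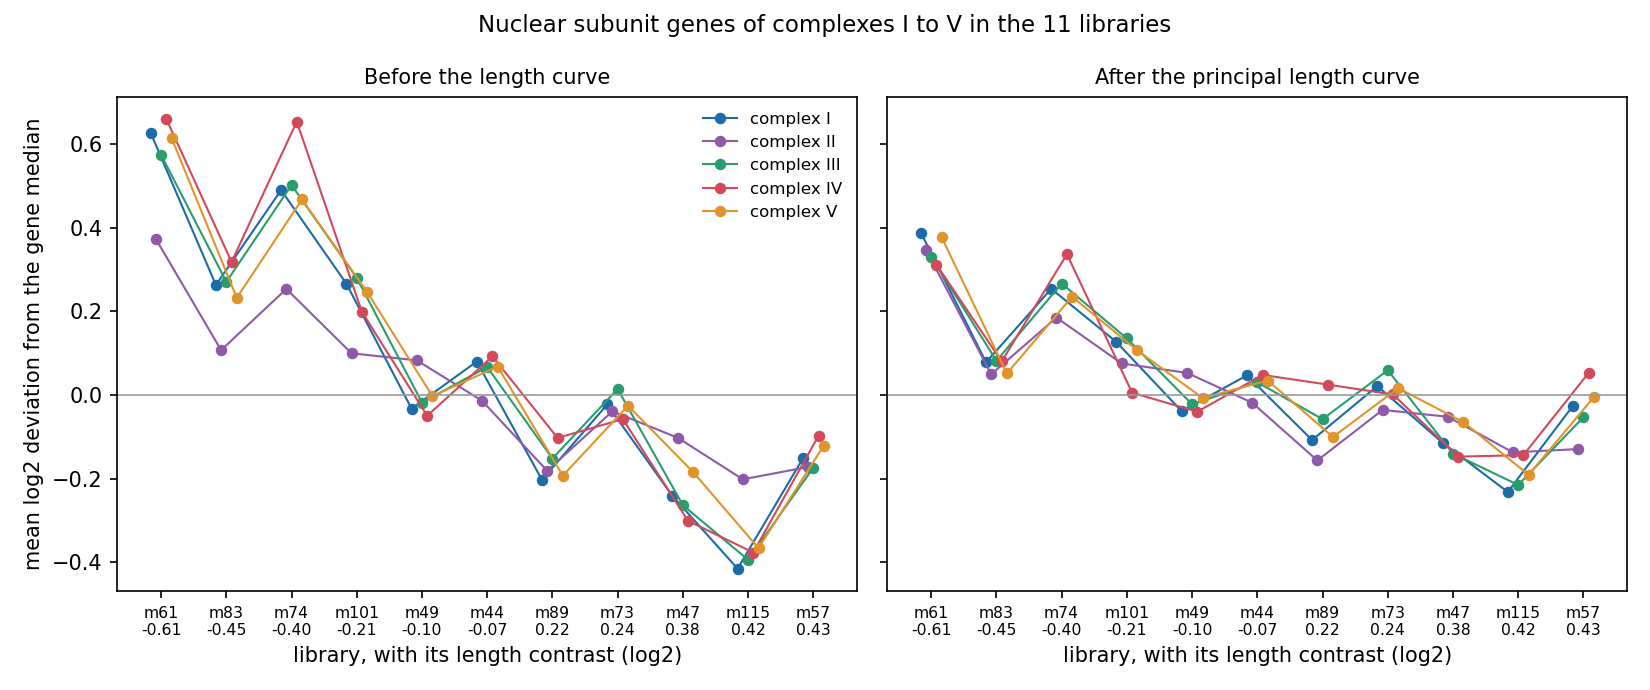
Mean log2 deviation of the genes of each complex from their own medians (y) in the 11 libraries (x), ordered by the length contrast printed under each code, before (left) and after (right) the principal length curve. Coloured lines are complexes I to V. All complexes are high in m61 and m74 and low in m115 in both panels, with smaller differences on the right, where m61 lies between 0.31 and 0.39.

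Complexes I, III, IV and V also need subunits from the mitochondrial genome. Of the 13 mitochondrially encoded mRNAs, the 7 with a median of at least 100 CPM were used as a level per library. Among them mt-Cytb, cytochrome b of complex III, ranged from 7094 CPM (m74) through 9408 to 18847 (m61), and mt-Co1, the catalytic subunit of complex IV, from 4742 (m74) through 7691 to 12778 (m61). The other 6 were listed at medians of 1.62 CPM (mt-Co3) to 42.9 CPM (mt-Nd6). The cause of such low values was not tested, and they are not taken here as true levels. The mean log2 deviation of the 7 mRNAs was 0.88 in m61, 0.28 in m83 and 0.19 in m101, and -0.80 in m74.

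The mitochondrial and nuclear sets parted most widely in m74. This library had the lowest mitochondrial level and the second highest nuclear level, while m61 was highest for both. The mitochondrial and nuclear means also differed in sign in m47 (0.11 and -0.24) and in m73 (0.08 and -0.03). Cox4i1, the partner of mt-Co1 in complex IV, had 825 CPM in m74 and 902 in m61, with a median of 502. In the same libraries mt-Co1 had 4742 and 12778 CPM.

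Across all 11 libraries, none of the 83 subunit genes was called for a slope on the mitochondrial level (edgeR's quasi-likelihood test, Benjamini-Hochberg adjustment), against 0.0391% of all genes called as rising and 0 as falling. Of the 6 genes called, 5 are mitochondrially encoded mRNAs used in the level itself. At an unadjusted p under 0.05, 3 subunit genes (3.61%) had a positive slope (Atp5s, Cox7a2l and Ndufv2) and 0 a negative one, against 4.44% and 6.32% of all genes. That share is no higher than over all genes. DESeq2 called 1 subunit gene, Atp5s, as rising, against 0.883% of the genes it gave an adjusted p, and 0 as falling, against 0.926%. Without m74, edgeR called 65 subunit genes as rising and the median slope was 0.86, against 0.16 with all libraries. In that setting 918 genes were called as rising and 776 as falling over all genes. Without m61 the median slope was -0.23 and none was called.

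The largest slopes over all libraries were those of Cox7a2l, which helps join complexes III and IV (0.50, edgeR adjusted p = 0.417), Atp5s (0.50, adjusted p = 0.335) and Ndufa4l2 (0.47, adjusted p = 0.644). Those nearest 0 were Ndufb7, Ndufv3 and Ndufs7, each at 0.01 or -0.01. Without m74 that of Cox7a2l was 1.142 (adjusted p = 0.00835) and that of Cox5a 1.04 (adjusted p = 0.00989). With the exon length curve as an offset, none was called over all libraries, and the lowest slope was that of Cox7a1 (-0.51, adjusted p = 0.596). At an unadjusted p under 0.05, 5 subunit genes (6.02%) had a positive slope, against 6.26% of all genes. Without m74, 34 were called as rising, with a median slope of 0.48, beside 556 genes rising and 180 falling over all genes. With the length contrast added to the fit instead of the curve, the median slope over all libraries was -0.06, against 0.09 with the curve. None of the subunit genes was called in that fit, beside 8 genes rising and 0 falling over all genes. The slopes of 38 of the 83 had the opposite sign to those with the curve. The relation between nuclear and mitochondrial subunit mRNAs thus changes with m74, with m61 and with the way length is allowed for. Whether either differs in genotype, dissection or preparation is not given by the labels.

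**Figure D4:**
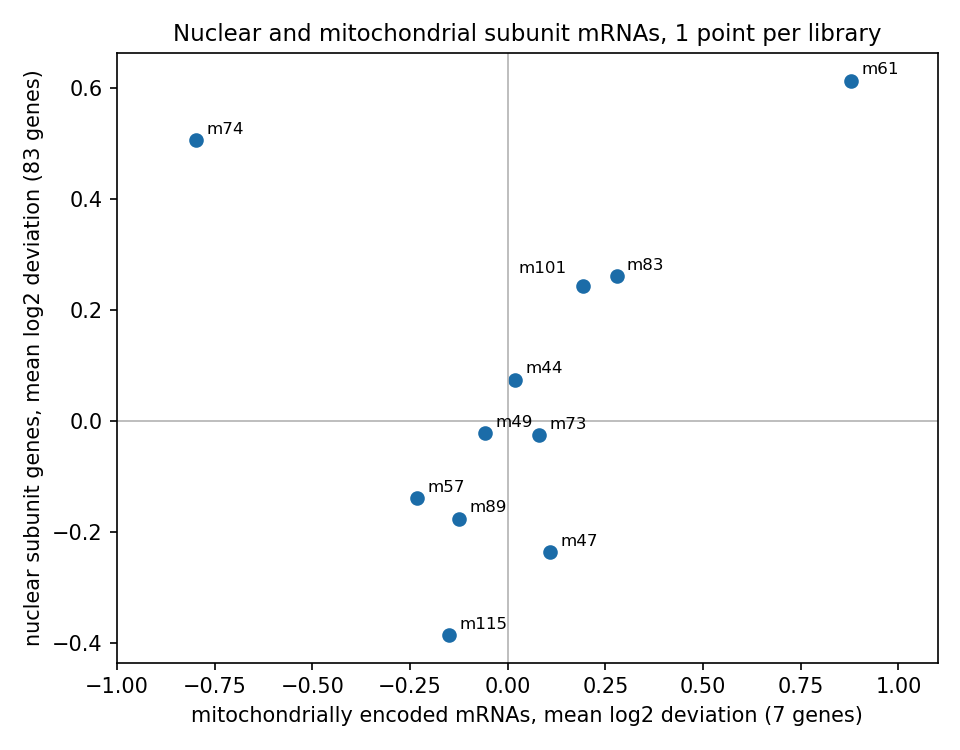
Mean log2 deviation of the 83 nuclear subunit genes (y) against that of the 7 abundant mitochondrially encoded mRNAs (x), with 1 point per library. The library m61 is high on both axes (0.61 and 0.88), and m74 is high on the nuclear axis (0.51) and lowest on the mitochondrial axis (-0.80).

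Other genes of mitochondria and energy metabolism were followed on the same contrast. Of 33 assembly factors, 14 fell and 0 rose, with a median slope of -0.37, against 14.9% falling and 18.1% rising over all genes. The steepest was Ndufaf8 (-1.18), an assembly factor of complex I, and the most abundant, Ttc19 of complex III, had a slope of 0.01 (edgeR adjusted p = 0.948). Of 11 electron transfer partners 5 fell and 1 rose. Cytochrome c (Cycs) fell by 0.63 on the log2 scale per unit of contrast, and the most abundant partner, the ATP carrier Slc25a4, by 0.53. Gpd2, which feeds electrons from glycerol phosphate, rose by 0.42, but had a slope of 0.00 after the principal length curve (adjusted p = 0.992). Among 13 citric acid cycle genes 4 fell and 1 rose, and among 16 glycolysis genes 11 fell and 0 rose, Gapdh by 0.75. After that curve 8 assembly factors, 3 electron transfer partners, 5 citric acid cycle genes and 8 glycolysis genes fell, and 0 rose in any of these 4 lists. Over all genes, 9.61% fell and 10.5% rose after it.

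Genes for factors known to control the subunit genes went the other way or were not called. Of 12, none fell and 4 rose with the contrast: Gabpa (1.36), Gabpb2 (1.40), Ppargc1b (1.70) and Ppargc1a (0.66, edgeR adjusted p = 0.0482). Over all genes tested, 14.9% fell and 18.1% rose. The median principal length of the 12 was 3023 bases, and genes outside the family of 3000 bases or more had a median slope of 0.32. With the principal length curve 3 rose, against 10.5% of all genes, and Ppargc1a had a slope of 0.18 (adjusted p = 0.631). Nrf1 had a slope of 0.03 (adjusted p = 0.907) and Yy1, the most abundant of them, one of 0.24 (adjusted p = 0.109). Gabpa overlaps Atp5j on the opposite strand over 397 bases, and the strand setting of the counting is not given in the sources used here.

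Cell type markers also moved between the libraries in which the subunit genes differ. The mean log2 deviation of 6 neuron markers was 0.31 in m61, 0.02 in m74 and -0.19 in m115, and 1 of the 6 fell with the contrast. For 8 striatal projection neuron markers it was 0.74, -0.47 and -0.19 (0 called), and for 5 cortical markers -0.06, 0.20 and -0.42 (1 fell). For 6 oligodendrocyte markers it was 0.23, 0.24 and -0.46 (2 fell), for 5 microglia markers 0.44, -0.01 and -0.22 (2 fell), and for 5 astrocyte markers 0.25, -0.09 and -0.05 (1 rose). For 5 vessel markers it was 0.16, 0.03 and 0.00 (0 called). For 5 ependyma and neuroblast markers it was 0.00, -0.51 and 1.58 (1 rose). Over all genes tested, 14.9% fell with the contrast and 18.1% rose. The subunit genes were highest in m61, then m74, and lowest in m115, and the neuron, microglia and vessel markers had the same order of these 3 libraries. The other 5 marker lists did not. The part of cell makeup in the subunit levels was not tested.

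Some counts are uncertain. By sequence, 22 of the 86 genes had a pseudogene in the annotation at 95% identity or more over at least 100 bases, among them Atp5l with 9, Atp5h and Cox7c with 4 each, and Uqcrb with 3. A gene on the opposite strand overlapped 27 of the 86, and a gene on the same strand overlapped 5.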

How the data were processed

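Poly(A) RNA was sequenced in 11 libraries with a kit that marks strand, per the labels' protocols. The authors deposited raw counts of reads per gene. Tools named in the submitters' processing notes are HTSeq 0.6.1, TopHat2 2.0.14, Bowtie2 2.1.0 and bcl2fastq 2.17.1.14, with the build mm10. Neither the strand setting nor the annotation release of the counting is given in the sources used here. Names, lengths and coordinates came from GENCODE M21, which matched 52403 of 52550 identifiers, the others holding 0.0112 to 0.0214% of counts. Whether libraries are separate litters or batches is not given, so p-values measure only the spread between them.

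From the deposited counts, CPM were computed with TMM factors (edgeR 4.0.16, R 4.3.3). Log2 deviations used a pseudocount of 0.5. Slopes came from edgeR's quasi-likelihood test with Benjamini-Hochberg adjustment over 15353 genes, called at an adjusted p under 0.05. Spread is edgeR's coefficient of variation with an intercept only, without sharing between genes. Length curves were lowess fits with a span of 0.3. DESeq2 1.42.0 was the other count test. Python 3.11.15, pandas 2.3.3, numpy 2.4.6, matplotlib 3.10.9 and BLAST 2.17.0 were also used. The slope and spread steps were tested on simulated data.

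The genes and lists were chosen with earlier results of these data known. Named genes are Atp5b, Cox5a and Cox6a1, the extremes of level, spread and slope, the tissue forms, the core subunits, genes below the filter, and the most abundant and steepest genes of other lists. Genes named for a window sequence, a long rare isoform or a reversed slope, Gapdh, Nrf1 and Gpd2 were chosen once their values had been seen. The principal length curve, and the length curves as offsets in the contrast test, were chosen after seeing the data. The NRF1 word was shortened from 10 to 8 letters after its matches were seen. The values of 1 gene are not reported here by name.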

Additional observations from a re-analysis of the deposited data

How the results depend on the processing

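The count of subunit genes that fell with the length contrast was 77 under DESeq2 and with its size factors, within 1.5 times of that under the other planned settings, and 73 (without m115) to 78 (without m101) when a library was left out. With the principal length curve, added after seeing the data, it was 49. All genes called lower then numbered 1476, or 1442 with the exon curve, against 2282, and those called higher 1618 or 1321, against 2773. When a library was left out, all genes called lower ranged from 1715 to 2358 and higher from 2279 to 2832. With the longest and shortest 25% of genes the median slope of the subunit genes was -1.17.

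For the mitochondrial level, DESeq2 called 1 subunit gene and, over all genes, 83 higher and 87 lower, against 6 and 0 for edgeR. Without the filter on low counts 2 genes were higher. Leaving out a library gave 0 to 65 subunit genes, 1 to 918 genes higher and 0 to 776 lower, with each upper value without m74. With the exon length curve, DESeq2 gave 159 higher and 67 lower, against 6 and 0. The number higher was 0 with a curve on length and GC content, 0 without the filter, 12 with mean transcript length and 10 with principal length. Leaving out a library gave 0 to 34 subunit genes, 0 to 556 genes higher and 0 to 180 lower.

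On the contrast, 3 subunit slopes changed sign with the exon curve and 2 with the principal curve, among them that of Ndufc2, called before and at 0.11 with either curve. On the mitochondrial level, 67 of 83 changed sign without m61, 18 on library totals without scaling and 8 without m74. Of those 8, Ndufs7 (0.76 without m74, -0.48 without m61) and Atp5j2 (0.90 and -0.68, and 0.83 and -0.67 with the curve) were called without m74. The cause was not tested. The median spread of subunit genes was 0.215 to 0.265 when a library was left out, and 0.139 to 0.171 after the exon curve. Over all genes it was 0.181 to 0.206, and 0.163 to 0.184 after that curve.

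No paired analysis was possible because the labels give no groups and no replicate numbers. Cox4i2, Cox6b2 and Cox7a1 had few counts, which limits what their slopes can show.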
